A study of Homo sapiens with 6 samples.

Results

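Small non-coding RNA genes of 3 families were followed in KMS27 cells with and without HA-TAZ: the Y RNA genes RNY1, RNY3, RNY4 and RNY5, the vault RNA genes VTRNA1-1, VTRNA1-2 and VTRNA1-3, RMRP, which encodes the RNA of RNase MRP, and RPPH1, which encodes the RNA of RNase P. They were found by exact symbol, without pseudogene copies, and made up 9 of the 63677 gene IDs and 11 of the 215170 transcripts of the deposited table. KMS27 is an established line of human malignant plasma cells. The first group held 3 libraries of KMS27 with overexpression of HA-TAZ, the product of WWTR1 with an HA peptide tag, and the second 3 libraries of wild type KMS27. All 6 came from total RNA after removal of ribosomal RNA, so RNAs without a poly(A) tail were kept. The kit marks strand, and the RNA had passed RNeasy columns, which in their standard use retain very short RNAs poorly. The labels say that libraries were made in triplicate from equal amounts of RNA, and the wild type titles carry HA, with no vector named. The promoter that drove HA-TAZ and the number of clones are not given in the sources used here. The HA-TAZ columns were tied to their samples by name. The remaining columns are headed scr, which no label uses, and were taken by elimination as wild type (control a, b and c). Values per library are given in the order HA-TAZ 1, 2 and 3 and control a, b and c. Nothing states that the libraries of a group came from separate cultures, so the p-values measure the spread between these libraries, which may be technical. In bulk RNA, fewer cells that carry an RNA and less of it per cell cannot be told apart.

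All of these genes are known to be transcribed by RNA polymerase III. Y RNAs are short stem-loop RNAs that bind the proteins Ro60 and La and take part in RNA quality control and the start of DNA replication. Vault RNAs are parts of the vault, a large barrel of protein in the cytoplasm. RNase P trims the leader from transfer RNA precursors, RNase MRP cuts ribosomal RNA precursors, and both enzymes are an RNA bound to a largely shared set of proteins. RMRP, RPPH1 and the Y RNA genes have promoters upstream of the gene, whereas vault RNA genes, like transfer RNA genes, have A and B boxes inside the transcribed part.

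The sequences below come from GENCODE release 29 (GRCh38), matched by transcript ID with its version. They are shown because their length and likeness decide how reads can be assigned. GENCODE 29 held 10 of the 11 transcripts, all but that of RNY5, and 91203 of the 215170 transcripts of the table. In the Y RNAs the capitals mark the 11 bases at the 5′ end that RNY1 and RNY4 have in common. The 5′ end pairs with the 3′ end in the stem that carries the Ro60 site.
RNY1: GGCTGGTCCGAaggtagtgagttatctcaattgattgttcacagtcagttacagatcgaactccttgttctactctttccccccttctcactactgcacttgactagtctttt
RNY4: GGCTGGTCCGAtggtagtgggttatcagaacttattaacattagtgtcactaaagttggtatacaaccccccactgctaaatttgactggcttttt

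RNY1 (113 bases, chr7:148987136-148987248, minus strand) and RNY4 (96 bases, chr7:148963315-148963410, plus strand) lie near each other on chromosome 7 and inside no other GENCODE 29 gene. They were identical at 64.7% of aligned positions. Both end in a run of at least 4 T, the termination signal of RNA polymerase III.

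In the vault RNAs the first capitals mark the 29 bases that all 3 have in common at the 5′ end. The second mark the match to the core of the B box, searched as GTTCGANNC on both strands.
VTRNA1-1: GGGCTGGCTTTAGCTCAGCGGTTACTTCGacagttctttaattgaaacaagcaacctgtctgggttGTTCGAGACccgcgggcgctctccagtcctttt
VTRNA1-2: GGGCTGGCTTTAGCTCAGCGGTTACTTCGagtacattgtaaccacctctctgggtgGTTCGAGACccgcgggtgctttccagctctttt
VTRNA1-3: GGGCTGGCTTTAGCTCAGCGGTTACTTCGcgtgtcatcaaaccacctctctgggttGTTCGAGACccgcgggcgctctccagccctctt

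The vault RNA genes lie on chromosome 5, on the plus strand (VTRNA1-1 at chr5:140711275-140711373, VTRNA1-2 at chr5:140718925-140719013 and VTRNA1-3 at chr5:140726158-140726246). The B box letters were found in all 3 and in none of the other 7 member transcripts with a sequence. Of 3568 transcripts of 80 to 120 bases, 0.308% held them. The vault RNAs were 82.0% to 87.8% identical in pairs.

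RMRP (minus strand of chromosome 9) was represented by a transcript of 264 bases (chr9:35657754-35658017) and another of 268 bases (chr9:35657751-35658018) that contains it whole. The 4 bases of the longer one that lie outside the shorter one are in capitals.
RMRP: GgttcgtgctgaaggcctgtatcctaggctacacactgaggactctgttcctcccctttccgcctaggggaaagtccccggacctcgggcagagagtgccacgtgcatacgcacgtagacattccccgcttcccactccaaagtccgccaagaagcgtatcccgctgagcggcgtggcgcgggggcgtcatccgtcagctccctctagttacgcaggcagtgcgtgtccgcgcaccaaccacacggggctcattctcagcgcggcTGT

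RPPH1 (minus strand of chromosome 14) also had a pair of transcripts. The RNase P RNA itself is 333 bases long (chr14:20343075-20343407). The other, of 638 bases (chr14:20343048-20343685), spans it and is named AL355075.4 in GENCODE 29. Reads within the overlap of such pairs cannot be told apart, so each gene was summed over its transcripts.

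Values are TPM, a unit that divides estimated counts by the length a transcript offers to fragments and states them as a share of the library. Scaled TPM is TPM divided by a factor per library, the median ratio over genes. It was 0.866 to 0.967 in HA-TAZ and 1.06 to 1.21 in control libraries, so the scaling raises HA-TAZ against control values. The median log2 fold change of all tested genes was −0.27 with TPM as deposited and −0.03 after scaling. The check of the labels held: the level of WWTR1 ran from 293 to 306 TPM with HA-TAZ and from 1.69 to 2.69 TPM without. Of the plasma cell markers, 8 of 8 had a mean of at least 1 TPM, with a summed level of 550 to 599 TPM in HA-TAZ and 653 to 743 TPM in control libraries. Markers of T cells summed to 1.49 to 1.53 and 2.39 to 2.50 TPM, myeloid markers to 1.68 to 1.93 and 1.91 to 2.20 TPM, and those of epithelium and stroma to 1.59 to 1.79 and 1.05 to 2.41 TPM in the same order. S100A8 was at 0 in all libraries. The part of these markers in the results was not tested.

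The genes spanned a wide range of levels. Their TPM together was 2.42%, 2.16% and 2.46% of the HA-TAZ libraries, and 1.59%, 1.95% and 2.15% of the controls. RPPH1 and RMRP held 99.4% to 99.7% of this sum in every library. RPPH1 had a mean over the 6 libraries of 17361 scaled TPM, which was 4.24 times that of RMRP, and was the higher of both in 6 of 6 libraries. RMRP, at 4092 scaled TPM, was 71.5 times as high as RNY1. RNY1, at 57.2 scaled TPM, was estimated at 2.29 times the level of RNY3, again in 6 of 6 libraries. All 72 stretches of 31 bases in RNY3 and 79 of 83 in RNY1 also occurred in transcripts of other genes. Reads cannot be assigned to RNY1 and RNY3 with certainty, so their order is an order of estimates. RMRP (264 and 268 bases) is longer than RNY1 (113 bases), and the part of losses on the columns in their ratio was not tested. The ranges of RPPH1, RMRP, RNY1 and RNY3 over the libraries were separate from each other. Below RNY3 the ranges of neighbours overlapped: RNY4 (5.76) was above VTRNA1-1 (3.19) in 3 of 6 libraries, and RNY5 (0.823) above VTRNA1-3 (0.305) in 4 of 6. VTRNA1-2 was listed at 0 throughout.

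**Figure D1:**
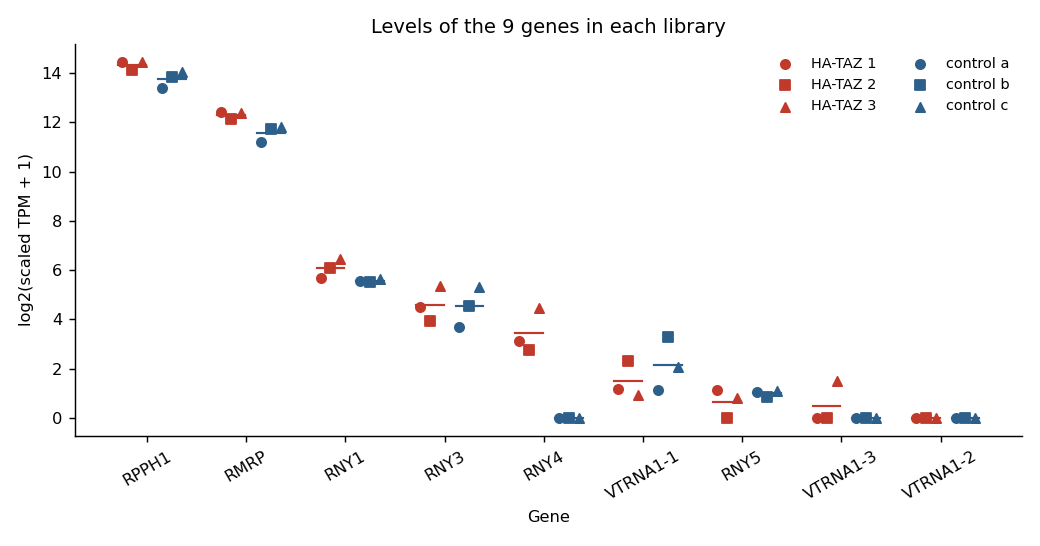
Levels of the 9 genes as log2(scaled TPM + 1) on the y axis, with genes ordered by their mean on the x axis; each point is a library (3 HA-TAZ, 3 control) and each line a group mean. RPPH1 and RMRP stand far above the others, and RNY4 has a level above 0 in the HA-TAZ libraries alone.

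These levels rest on very different numbers of reads, since a short RNA offers few positions to a fragment. Estimated counts, computed here from the means and effects in the authors' deposited table, came to 202352 for the 333-base RPPH1 transcript in a typical HA-TAZ library and 134916 in a typical control library. The shorter RMRP transcript had 30312 and 18394. RNY1 had 67.2 and 45.8 estimated counts, RNY3 21.4 and 19.3, and RNY4 8.73 and 0. One TPM therefore stood for 9.83 estimated counts for RPPH1 and 6.33 for RMRP but for 0.976 for RNY1 and 0.820 for RNY3. It is not given for RNY4, since the mean over libraries cannot be used where controls are at 0. Over transcripts of 1000 to 2000 bases above 0 in all libraries the median was 77.5, and over those of 80 to 120 bases it was 0.833. In a typical HA-TAZ library the counting error alone was about 12.2% of the estimated count for RNY1, 21.6% for RNY3 and 33.8% for RNY4. For RNY5 and the vault RNAs the authors' deposited table held no statistics. The depth of a single library was unknown. The estimated counts of the 333-base transcript differed between groups about as scaled TPM did (ratio of means 1.49). TPM as deposited gave 1.21. The estimated counts are therefore read as normalised between libraries, and the counts per TPM and counting errors as approximate.

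**Figure D2:**
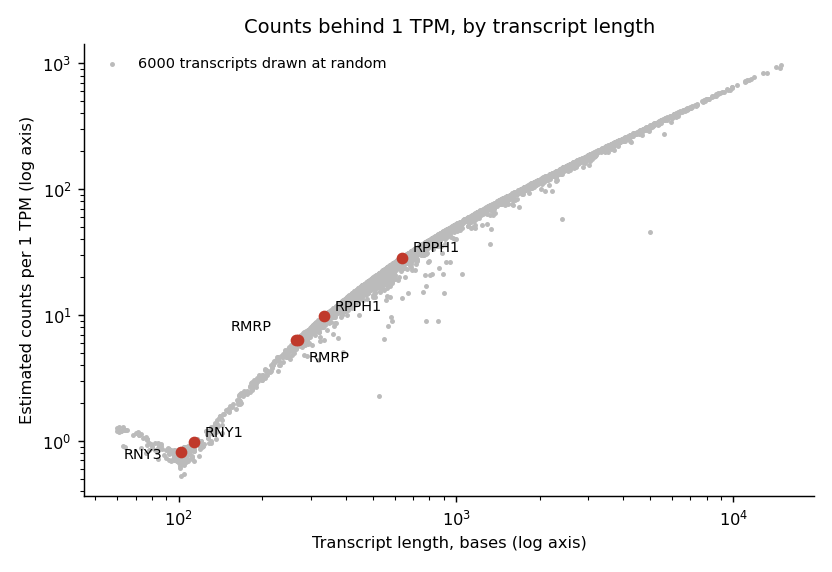
Estimated counts behind 1 TPM (y axis, log scale) against transcript length in bases (x axis, log scale) for 6000 transcripts drawn at random (grey) and the member transcripts with statistics in the authors' deposited table (red), all above 0 in every library. RNY1 and RNY3 sit at the bottom, below 1 count per TPM, and RPPH1 and RMRP at about 6 to 29.

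In the test over all genes, 6 of the 9 genes passed the filter of a mean of at least 1 TPM, and 1 of them, RNY4, was called (limma, Benjamini-Hochberg adjusted p under 0.05). The background was 7.29% of 22651 tested genes called in either direction and 4.67% called higher. RNY4 passed the filter through the HA-TAZ libraries alone, so its difference was fixed by its entry and it is left out of the counts that follow. Of the other 5 genes none was called. At an unadjusted p under 0.05 in limma, 3 of the 5 passed, all higher (RMRP, RPPH1 and RNY1), against 30.7% of tested genes in either direction and 16.6% higher. Scaled TPM was higher in every HA-TAZ than in every control library for RPPH1, RMRP and RNY1, 3 of the 5, where 20.2% of all tested genes showed this and 38.5% did not overlap in either direction. With TPM as deposited the same held for RMRP, 1 of the 5, where it held for 4.41% of tested genes and 48.0% did not overlap in either direction. Fold changes below are on the scale of log2(scaled TPM + 1), which understates changes of genes near 1 TPM.

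RMRP (ENSG00000269900) and RPPH1 (ENSG00000259001) had higher values in HA-TAZ libraries but did not pass the threshold over all genes. RMRP was at 4774, 4288 and 4765 TPM in the HA-TAZ libraries, against 2815, 3655 and 3773 TPM in the controls. The groups did not overlap, with control a lowest. The means were 5101 ± 583 scaled TPM (SD, n = 3) and 3083 ± 663 scaled TPM (SD, n = 3). The log2 fold change was 0.74 (SE 0.19, limma adjusted p = 0.0688). With a filter of at least 5 TPM, which leaves fewer genes, the same fold change was called (limma adjusted p = 0.0460). With TPM as deposited it was 0.44, and across fits with 1 library removed it was 0.55 to 0.86.

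RPPH1 was at 19371, 17180 and 19706 TPM in the HA-TAZ libraries, against 12999.9, 15749 and 17635 TPM in the controls. As deposited the groups overlapped, since HA-TAZ 2 was below control c. After scaling they did not, with 22376, 17768 and 22146 scaled TPM in the HA-TAZ and 10751, 14444 and 16679 scaled TPM in the control libraries. The log2 fold change of RPPH1 was 0.59 (SE 0.22, limma adjusted p = 0.139). It was 0.29 with TPM as deposited and was 0.41 to 0.73 across fits with 1 library removed, lowest without control a. Control a was the lowest library for both RNAs.

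By transcript, the 333-base RNA held 98.0% to 98.4% of RPPH1 in all libraries. The 264-base RNA held 92.4% ± 1.01 (SD, n = 3) of RMRP in HA-TAZ and 93.8% ± 1.08 (SD, n = 3) in control libraries, with overlap (exact two-sided permutation p = 0.2). In the authors' deposited table, 7 of the 11 member transcripts had statistics and 3 of them a q-value under 0.05, all with a positive effect. Over all transcripts of that table, 5.68% had such a q-value and 4.08% had it with a positive effect. The effect of the 264-base RMRP transcript was 0.4995 on the natural log scale (standard error 0.137, q-value 0.00869 in the authors' deposited table). That of the 268-base transcript was 0.715 (standard error 0.219, q-value 0.0249 in the authors' deposited table). The 333-base RNA of RPPH1 had 0.405 (standard error 0.141, q-value 0.0642) and the 638-base transcript 0.410 (standard error 0.128, q-value 0.0306), again in the authors' deposited table. So in the authors' test both RMRP transcripts passed, and of the RPPH1 pair the longer one alone. Reads within the overlap of each pair cannot be told apart, so these 3 are not separate results.

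A ratio of a pair of RNAs within a library does not depend on the scaling, so the ratio of both RNase RNAs to each other and to RN7SK was compared. RN7SK (ENSG00000202198), the RNA that holds the elongation factor P-TEFb inactive, is transcribed from the same kind of upstream promoter. The ratio of RPPH1 to RMRP was 4.06, 4.01 and 4.14 in the HA-TAZ and 4.62, 4.31 and 4.67 in the control libraries. It was lower in all HA-TAZ libraries (4.07 ± 0.0647 against 4.53 ± 0.196, SD, n = 3 each), so RMRP differed by more than RPPH1 in these libraries. The ratio of RMRP to RN7SK was 0.0387 ± 0.00366 in HA-TAZ and 0.0267 ± 0.00268 in control libraries (SD, n = 3 each), 1.45 times as high and without overlap. That of RPPH1 to RN7SK was 0.158 ± 0.0174 and 0.121 ± 0.0110 (SD, n = 3 each), 1.31 times as high, also without overlap. Each of the 3 ratios gave an exact two-sided permutation p of 0.1, the smallest that 3 against 3 libraries allow, and 0.1 after Benjamini-Hochberg adjustment, so none could pass the threshold. RN7SK itself had a log2 fold change of 0.20 (SE 0.35, limma adjusted p = 0.722), and its groups overlapped. This choice of ratios was made after values had been seen.

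**Figure D3:**
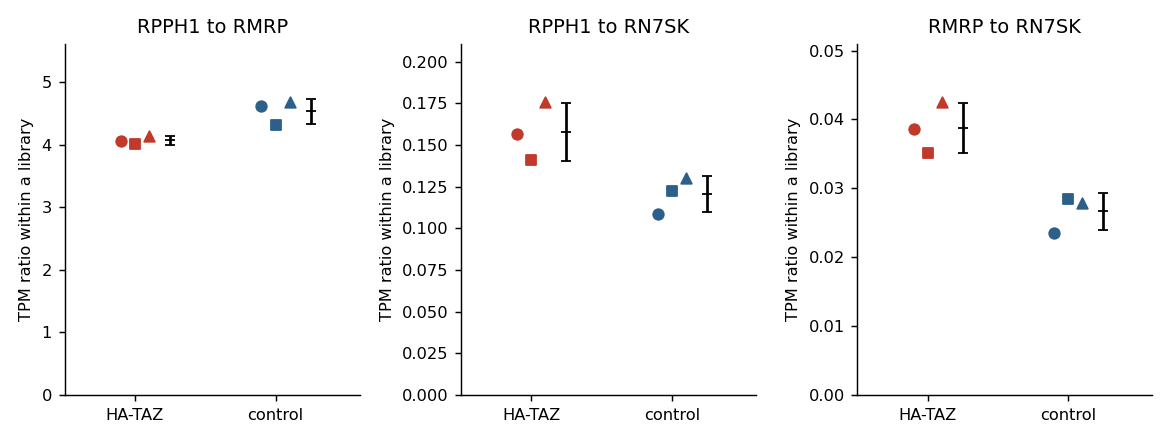
Ratio of TPM of a pair of RNAs within each library (y axis, starting at 0) for RPPH1 to RMRP, RPPH1 to RN7SK and RMRP to RN7SK; points are libraries and bars give the mean and SD of 3. The HA-TAZ libraries lie below the controls in the first panel and above them in the other panels.

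By the rule for likeness, the root mean square difference of centred log2(scaled TPM + 1) over the 6 libraries, the tested genes most like RPPH1 were DVL1 (0.0351), which encodes a protein of Wnt signalling, and a pair of gene IDs of RPS9 (ENSG00000272614 and ENSG00000272643, both 0.0354), which encodes a protein of the small ribosomal subunit. The RPS9 pair had the same 6 values, and neither ID is in GENCODE 29. The median difference over all 22650 genes compared with RPPH1 was 0.414. RMRP had rank 90 in this order (0.0871), RNY1 rank 5046 (0.306) and RNY3 rank 16169 (0.515). RMRP was thus nearer to RPPH1 in its pattern than RNY1 or RNY3 was. RNY1 and RNY3 had far fewer estimated counts, and the part of counting error in this order was not tested.

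RNY1 (ENSG00000201098) was at 44.0, 64.4 and 77.6 TPM in the HA-TAZ libraries, against 55.4, 48.6 and 51.2 TPM in the controls. As deposited the groups overlapped, with HA-TAZ 1 the lowest library of all. In scaled TPM they did not (68.2 ± 18.3 and 46.3 ± 1.96, SD, n = 3 each). The log2 fold change was 0.52 (SE 0.19, limma adjusted p = 0.133), and 0.22 with TPM as deposited. RNY3 (ENSG00000202354) was at 18.9, 13.7 and 35.8 TPM in the HA-TAZ and 14.5, 24.2 and 41.6 TPM in the control libraries. Its groups overlapped on both scales. The log2 fold change of RNY3 was 0.08 (SE 0.52, limma adjusted p = 0.934), and it was negative with TPM as deposited (−0.21), without HA-TAZ 3 (−0.30) and without control a (−0.33).

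RNY4 (ENSG00000252316) was at 6.59, 5.64 and 18.8 TPM in the HA-TAZ libraries and listed at 0 in the controls. It was called (limma adjusted p = 0.0185), but no fold is given, because the fitted value depends on the pseudocount (3.45 at 1 and 6.63 at 0.1). RNY4 entered the test through the HA-TAZ libraries alone, so neither this call nor the fits that follow are read as support for a difference. Of the 6 fits with 1 library removed, 1 kept the call, that without HA-TAZ 3 (limma, adjusted p = 0.0126). The adjusted p from limma was 0.0694 without HA-TAZ 1, 0.0508 without HA-TAZ 2, 0.0614 without control a, 0.0701 without control b and 0.0544 without control c. In the authors' deposited table the q-value of the RNY4 transcript was 0.370. RNY5 (ENSG00000252310) was below the filter, at 1.01, 0 and 0.657 TPM in the HA-TAZ and 1.30, 0.875 and 1.22 TPM in the control libraries, with overlap.

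**Figure D4:**
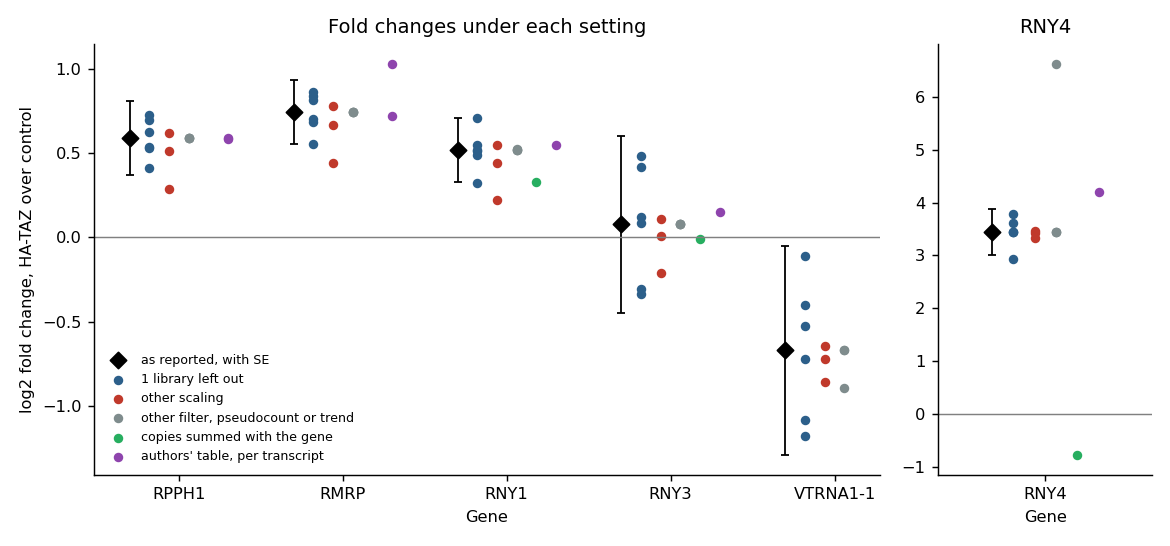
Log2 fold change of HA-TAZ over control (y axis) for the 6 tested genes under each alternative; the diamond is the reported value with its standard error, and the points are the fits with 1 library left out, other scalings, other filters, pseudocounts or trend, the Y RNA gene summed with its named copies, and the authors' deposited effect per transcript. RPPH1, RMRP and RNY1 stay above 0, RNY3 lies on both sides of it, and RNY4, in a panel of its own because of its scale, falls to −0.78 when its copies are added.

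Y RNA genes have many pseudogene copies in the human genome, which were counted apart. The table held 934 gene IDs of such copies, most of them under the symbol Y_RNA and 53 named after a Y RNA gene, 30 of these after RNY4. Every one of the 72 stretches of 31 bases in RNY3 occurred in at least one other transcript of the table with a GENCODE 29 sequence, as did 79 of 83 in RNY1 and 53 of 66 in RNY4. At least 127 other transcripts had such a stretch in common with RNY3, 46 with RNY1 and 24 with RNY4. The search reached the transcripts with a GENCODE 29 sequence, 761 of 937 copy transcripts among them, so these are lower limits. Among those searched, no transcript of another gene did so for RMRP or RPPH1. For VTRNA1-1, 63 of 69 stretches were found in no other transcript searched, and for VTRNA1-2 all 59. Reads of a Y RNA and of its copies can therefore be exchanged in the estimates, and values of single Y RNA genes are uncertain. In RNY4, the 13 stretches found in no other transcript searched form 2 runs, 7 within bases 44 to 80 and 6 within bases 61 to 96. The bases they cover, from 44 to 96, are in capitals here, but other stretches within the capitals occur elsewhere.
RNY4: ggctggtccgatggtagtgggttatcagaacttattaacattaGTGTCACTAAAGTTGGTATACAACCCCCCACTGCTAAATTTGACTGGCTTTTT

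The named copies of RNY4 were lower in the HA-TAZ libraries. RNY4 itself passed the filter through these libraries alone, so its higher level there is not read as a contrast. The summed level of the copies was 115, 140 and 107 scaled TPM in the HA-TAZ libraries and 242, 204 and 237 scaled TPM in the controls. RNY4 summed with its 30 named copies had a log2 fold change of −0.78 with a standard error of 0.10 and was called lower (limma adjusted p = 0.0167). RNY4 made up 6.22%, 3.998% and 16.5% of this sum in the HA-TAZ libraries and none of it in the controls. Of the 13 tested RNY4 copies, 3 were called lower and 0 higher, and 5 and 0 passed at an unadjusted p-value under 0.05 in limma. Over all tested genes, 2.63% were called lower and 14.1% were lower at that unadjusted threshold. The 3 were named after their values were seen. RNY4P7 (ENSG00000201470) averaged 10.4 ± 4.62 TPM with HA-TAZ and 49.7 ± 6.84 TPM without (SD, n = 3 each). RNY4P8 and RNY4P24 averaged 4.43 ± 0.930 and 7.38 ± 1.34 TPM with HA-TAZ and 11.0 ± 1.38 and 21.5 ± 5.68 TPM without (SD, n = 3 each). RNY4P7 is 7 single-base edits away from RNY4 and has 2 of its 66 stretches of 31 bases. RNY4P24 is 10 edits away and has 1 of them, other copies have up to 24, and RNY4P8 had no GENCODE 29 sequence.

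RNY1 summed with its 8 named copies had a log2 fold change of 0.33 (limma adjusted p = 0.152), and RNY3 with its 10 of −0.01 (adjusted p = 0.979). RNY1 made up 72.6% of its sum and RNY3 43.5%. The 24 transcripts that had a stretch of 31 bases in common with RNY4 summed to 125 to 145 scaled TPM in HA-TAZ and 197 to 223 in control libraries. Those that did so with RNY1 summed to 115 to 133 and 164 to 191 scaled TPM. For RNY3 the sums were 390 to 420 and 501 to 561 scaled TPM. In each set the HA-TAZ libraries were below all controls in scaled TPM, as they were for 18.3% of single tested genes. The sets of RNY3 and RNY4 hold named copies. RNY1 itself was above the controls in scaled TPM but overlapped them as deposited.

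Over all copies the HA-TAZ libraries were lower as well. The 934 IDs summed to 3200, 3334 and 3603 scaled TPM in the HA-TAZ and 4968, 4498 and 4831 scaled TPM in the control libraries, many times the sum of the 4 Y RNA genes. The groups did not overlap, nor did they with TPM as deposited. Of all tested genes, 18.3% were lower without overlap in scaled TPM. As deposited, 48.0% did not overlap in either direction and 4.41% were higher without overlap. Of 414 tested copies, 14 were called lower, which is 3.38% against a background of 2.63%, and 1 higher, 0.242% against 4.67%. The median log2 fold change was −0.42 over the tested copies and −0.03 over all tested genes. By position in GENCODE 29, 258 copies lay inside a longer gene on its strand, 238 inside one on the other strand and 287 outside, and 151 were not in that release. Of these, 157, 141, 53 and 63 were tested, with medians of −0.50, −0.53, −0.12 and −0.18 in this order. The summed level was lower in the HA-TAZ libraries without overlap in each of these classes, on both scales. For the copies outside it was 216 to 268 scaled TPM in HA-TAZ and 272 to 323 scaled TPM in control libraries. RNY1, RNY3 and RNY4 belong with the copies outside other genes by position. Whether the quantification used the strand that the kit marks is not given in the sources used here, so reads of a copy and of the gene around it cannot be told apart.

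**Figure D5:**
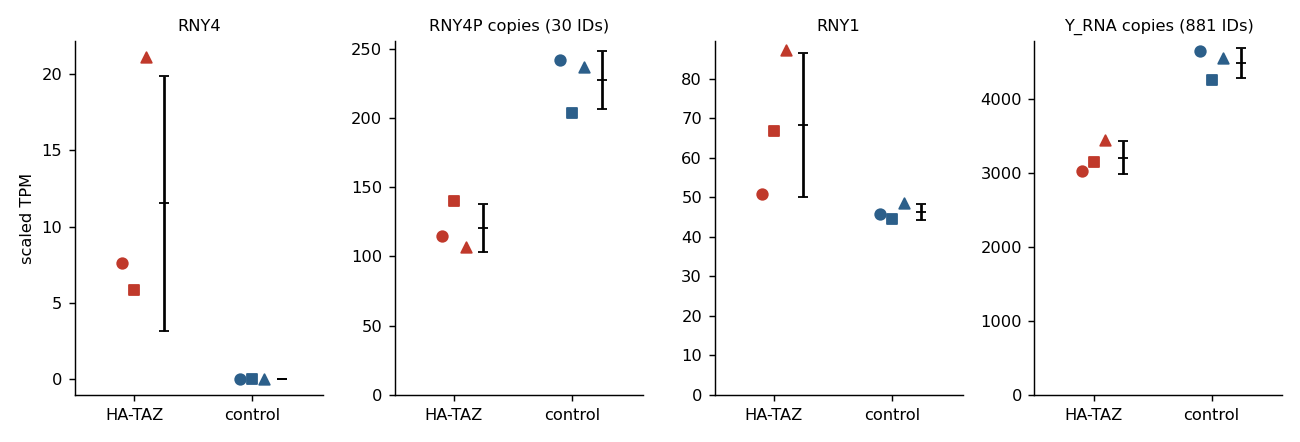
Scaled TPM (y axis, starting at or just below 0) of RNY4, of its 30 named copies, of RNY1 and of the Y_RNA copies in HA-TAZ and control libraries; points are libraries and bars give the mean and SD of 3. RNY1 is higher and both sets of copies are lower in the HA-TAZ libraries, and RNY4 is at 0 in the controls.

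The vault RNAs were near or at the bottom of the table. VTRNA1-1 (ENSG00000199990), the main vault RNA of most human cells, was at 1.12, 3.81 and 0.829 TPM in the HA-TAZ libraries, against 1.45, 9.44 and 3.33 TPM in the controls. The groups overlapped, and libraries of 1 group differed by several-fold. Its log2 fold change was −0.67 (SE 0.62, limma adjusted p = 0.502). VTRNA1-3 (ENSG00000202515) was listed at 1.63 TPM in HA-TAZ 3 and at 0 in the other 5 libraries, and VTRNA1-2 (ENSG00000202111) at 0 in all 6. At a length of 89 bases a listing at 0 does not show that the RNA is absent.

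The proteins that bind, process or transcribe these RNAs were given as 6 lists, of which 72 of 74 genes were tested. After scaling, 12 were called higher and 0 lower (limma, Benjamini-Hochberg), against a background of 4.67% and 2.63%, and 37 and 3 passed at an unadjusted p-value under 0.05, against 16.6% and 14.1% of all tested genes. With TPM as deposited 5 were called, 0 of them higher (DIS3L, PARN, POP5, POU2F1 and SSB), where 13.5% of all tested genes were called lower and 1.15% higher. The scaling moves all genes of a library alike, and no direction is read for these lists. With the factor computed from protein-coding genes 6 were called, 5 of them higher (GTF3C6, MVP, POP4, SNAPC1 and YBX1) and SSB lower. The other genes named below as called higher were not called with that factor. Across fits with 1 library removed 0 to 2 were called. The median log2 fold change was 0.18 over the 72 and −0.03 over all tested genes. All of the 72 are protein-coding genes, whereas the tested genes include non-coding ones, so this background is unlike the lists. With the factor from protein-coding genes the median over all tested genes was −0.09.

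Of the RNase P and MRP proteins, 3 of 10 tested were called higher, against 4.67% of all tested genes, with a median of 0.27. POP4 had 62.2 ± 3.60 and 46.6 ± 3.72, POP7 65.9 ± 5.19 and 47.7 ± 5.35, and RPP30 32.2 ± 1.27 and 26.3 ± 1.51 scaled TPM in HA-TAZ and control libraries (SD, n = 3 each). With TPM as deposited the groups overlapped for each of these genes, and RPP30 averaged 29.2 TPM with HA-TAZ and 29.3 TPM without. POP1, the largest subunit, had a log2 fold change of 0.31 (limma adjusted p = 0.0541) and RPP38 of 0.19 (0.0897). RPP21 was split over 7 gene IDs and is uncertain. The vault list held the vault proteins MVP, TEP1 and PARP4. It also held NSUN2, SRSF2, DROSHA, DICER1, DGCR8, TRIM25 and TERT, which are not parts of the vault. Of these 10 genes, 1 was called higher, against the same 4.67%. This was MVP, the major vault protein that builds the shell, with a log2 fold change of 0.40 (limma adjusted p = 0.0371). Its groups overlapped with TPM as deposited. TEP1, which binds vault RNA, had 0.32 (adjusted p = 0.137) and PARP4, the vault ADP-ribose polymerase, 0.13 (adjusted p = 0.138).

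Of the Y RNA proteins, 4 of 15 tested were called higher, against 4.67% of all tested genes. These were the RNA-binding proteins PUF60, YBX1, YBX3 and ELAVL1, with log2 fold changes of 0.42, 0.34, 0.27 and 0.32 (limma). With TPM as deposited the groups of YBX1, YBX3 and ELAVL1 overlapped, and those of PUF60 did not. PUF60 had a second gene ID with the same values. The defining partners did not pass the threshold and differed in sign: TROVE2, which encodes Ro60, had a log2 fold change of 0.18 (limma adjusted p = 0.0867) and SSB, which encodes La, of −0.13 (0.110). SSB was at 40.9, 41.2 and 38.8 scaled TPM in the HA-TAZ and 44.3, 45.1 and 43.4 scaled TPM in the control libraries. It was called lower with TPM as deposited and with the factor from protein-coding genes.

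Of the factors for upstream promoters, which serve RMRP, RPPH1 and the Y RNA genes, 1 of 11 was called higher. SNAPC1, a subunit of the complex that binds the proximal element, was at 8.66, 8.81 and 8.33 scaled TPM in the HA-TAZ and 5.004, 5.86 and 5.39 scaled TPM in the control libraries, with a log2 fold change of 0.58 (limma adjusted p = 0.0213). SNAPC4, its DNA-binding subunit, had 0.34 (0.0725) and BRF2, the TFIIIB subunit of these promoters, 0.10 (0.434). Of the factors for internal promoters and their brake MAF1, 2 of 8 were called higher, both subunits of TFIIIC. GTF3C6 had a log2 fold change of 0.49 (limma adjusted p = 0.0112) and GTF3C4 of 0.29 (0.0455). BRF1, the TFIIIB subunit of internal promoters, had 0.13 (0.242). Of the RNA polymerase III subunits, 1 of 18 was called higher, POLR2E, which all nuclear RNA polymerases use, with 0.34 (0.0497). POLR3A, the largest subunit, had 0.14 (0.186). With TPM as deposited the groups of GTF3C4 overlapped (means of 10.4 TPM with HA-TAZ and 10.3 TPM without). Those of SNAPC1, GTF3C6 and POLR2E did not overlap, with POLR2E at means of 66.9 and 64.9 TPM. With 4.67% of all tested genes called higher, counts of 1 of 11, 2 of 8 and 1 of 18 are too small to set these lists apart. The counts of 3 of 10, 1 of 10 and 4 of 15 in the other lists are not read as setting them apart either. With TPM as deposited, 0 genes of the lists were called higher.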

How the data were processed

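Values were TPM per transcript in 6 libraries, deposited by the authors. The submitters' processing notes name kallisto 0.46.0, sleuth 0.30.0 and GRCh37, with no role given. The authors' deposited table of a sleuth Wald test gave p-values and q-values, and effects and means on the natural log (ln) scale. Its variance terms were not used. TPM was summed per gene ID and divided by each library's median-of-ratios factor over 21512 genes with a mean of at least 1 TPM and above 0 in all libraries. The test was limma with trend on log2(scaled TPM + 1), two-sided, Benjamini-Hochberg adjusted over 22651 genes. It was also run on simulated data with independent normal noise. These held no scaling error and no exchange of reads between genes, so that run says nothing about the members. Estimated counts per group were the exponential of the deposited mean plus or minus 0.5 times the effect, minus an offset of 0.5. GENCODE 29 gave gene types, positions and sequences. The members and lists were chosen with earlier results of these data known. Of the protein lists, called genes and 12 genes fixed by name are given. All columns of TPM were used. The fits ran in limma 3.58.1 under R 4.3.3. Sequences were aligned with edlib 1.3.9.post1, and tables and plots were made with Python 3.11.15 (pandas 2.3.3, numpy 2.4.6, matplotlib 3.10.9). The sequence of RNY3 is not reported here.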

Additional observations from a re-analysis of the deposited data

How the results depend on the processing

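The 1652 called genes (64.0% higher) became 691 with no filter on level, 3329 with TPM as deposited (7.84% higher), 1519 with the factor over protein-coding genes (43.4% higher) and 758 in limma without trend. Over the fits that each left out 1 library there were 115 to 433. The 1 called member became 2 (RMRP and RNY4) at a mean of at least 5 TPM and 0 to 1 with a library left out. The 12 called protein genes became 2 with no filter, 5 with TPM as deposited, 6 with the protein-coding factor, 2 without trend and 0 to 2 with a library left out. RNY3 turned negative with TPM as deposited (−0.21), without HA-TAZ 3 (−0.30), without control a (−0.33) and summed with its copies (−0.011), and was −0.33 to 0.48 over the fits with a library left out. RNY4 turned to −0.78 when summed with its copies. RMRP, RPPH1, RNY1 and VTRNA1-1 kept their sign under each alternative run. The cause was not tested, beyond fewer samples or genes in some fits. The factor over every gene above 0 and the ratios within a library were added after the data were seen. Few estimated counts limit the Y and vault RNAs. No paired analysis was possible because the control columns cannot be tied to numbered samples.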
